A study of Mus musculus with 25 samples.

Results

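The 8 genes described here make the egg coat and the machinery with which a mouse egg binds, fuses with and answers the sperm. They were taken by name: the egg coat genes Zp1, Zp2 and Zp3, the coat protease Astl, the sperm receptor Izumo1r, the tetraspanins Cd9 and Cd81, and the calcium release channel Itpr1. All 8 were found by Ensembl identifier in both deposited tables, which together listed 35561 genes. Libraries were made by Smart-seq2, which serves minute inputs and copies whole transcripts after priming on the poly(A) tail; there were 25, all from C57BL/6 mice. Metaphase II (MII) oocytes, the stage that awaits the sperm, had been matured in culture for 16 h with VCD (n = 5) or PBS (n = 4). 2-cell embryos with VCD (n = 4) or PBS (n = 4) and morulae with VCD (n = 4) or PBS (n = 4) followed insemination lasting 6 h. Per the labels VCD is a small molecule given in the culture media, and PBS, a buffered salt solution, is its control. The labels give no full name or dose for VCD and no number of oocytes, embryos, animals or cultures behind a library. The p-values below therefore speak of the spread among libraries, which may be technical.

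The zona pellucida is a glycoprotein matrix that the growing oocyte secretes, and in the mouse it is built of ZP1, ZP2 and ZP3. Sperm bind its ZP2, and after fertilization ovastacin, the product of Astl released from the cortical granules, cuts ZP2 so that further sperm no longer bind. On the egg membrane JUNO, the product of Izumo1r, holds the sperm protein IZUMO1, CD9 and to a lesser degree CD81 are needed for fusion, and the channel encoded by Itpr1 releases the calcium that activates the egg.

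Stage markers were present where the labels place them, which does not by itself tell the stages apart. All 7 oocyte markers, among them Bmp15 and Gdf9, had a mean of 1 FPKM or more in MII oocytes of both agents, all 6 markers of the 2-cell stage did so in 2-cell embryos, and all 8 markers of morulae did so in morulae. Some were also high elsewhere: Bmp15 averaged 1562 FPKM in 2-cell embryos with either agent. The morula markers Sall4 and Gata3 were higher in MII oocytes than in morulae, and the 2-cell markers Tcstv1 and Tcstv3 were above 1 FPKM in MII oocytes. In summed level the oocyte list was highest in MII oocytes (7413 to 9062 FPKM with VCD, 8032 to 8582 FPKM with PBS), the 2-cell list in 2-cell embryos (1073 to 1499 FPKM with VCD, 1206 to 1462 FPKM with PBS) and the morula list in morulae (368 to 485 FPKM with VCD, 354 to 444 FPKM with PBS). FPKM is the number of fragments counted for a gene, scaled by its length and by the total of its library. It is thus a share of a library, and a comparison between libraries also depends on the other genes in them. The depth implied by the values was between 15075832 and 20998296 reads per library, and 1 read in 1 kb of transcript was worth between 0.0476 and 0.0663 FPKM. Of 12 listed sperm and spermatid genes, including Izumo1, 10 were in the embryo table and none reached a mean of 1 FPKM in any group.

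The 8 genes fell into sharply different courses between stages. In MII oocytes Zp3, Astl, Zp1 and Zp2 stood at means of 406 FPKM or more and were among the 100 most abundant genes. By the morula stage Zp1, Zp2, Astl, Izumo1r and Itpr1 had fallen to means of 1.30 FPKM or less, Zp3 still averaged 26.4 FPKM with VCD and 31.1 FPKM with PBS, and Cd9 had become the 41st most abundant gene with VCD and the 34th with PBS. No member passed the test of VCD against PBS at any stage.

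**Figure D1:**
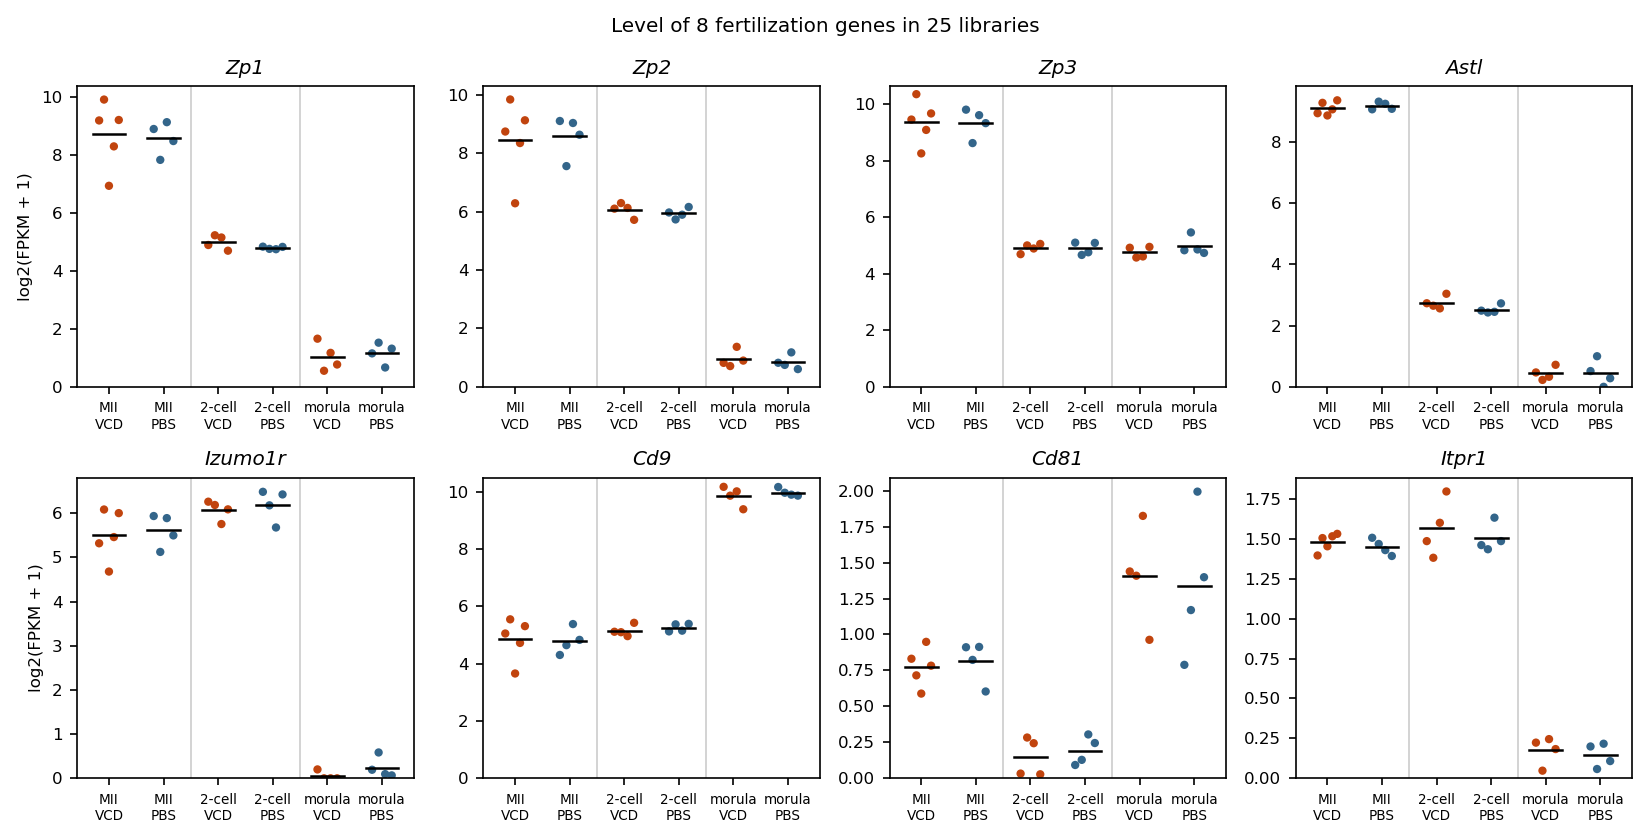
Level of each of the 8 genes in every library, as log2(FPKM + 1), with VCD libraries in orange and PBS libraries in blue at each stage; each point is a library, horizontal lines are group means, and the vertical scale differs between panels. Libraries of both agents lie at like levels within a stage, whereas the group means of Zp1, Zp2, Astl, Izumo1r and Itpr1 are lowest and those of Cd9 and Cd81 highest in morulae.

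Zp1 is annotated on the minus strand of chromosome 19 (10914287 to 10920632, GRCm38, GENCODE M21) and encodes the zona protein that cross-links the filaments of the coat. It stood at 585, 965, 122, 314 and 592 FPKM in the MII oocyte libraries with VCD, against 477, 227, 561 and 357 FPKM with PBS. In 2-cell embryos the level was 28.8, 36.6, 34.6 and 24.97 FPKM with VCD, and 27.6, 26.1, 25.9 and 27.4 FPKM with PBS. Morulae held 2.16, 0.468, 1.25 and 0.706 FPKM with VCD, and 1.23, 1.87, 0.588 and 1.49 FPKM with PBS. Every morula library was thus below every 2-cell library, and every 2-cell library below every oocyte library, while the agents overlapped at each stage. Oocytes and embryos are in separate tables with separate scaling, so levels across that boundary are set side by side and no test was made.

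Zp2, on the minus strand of chromosome 7 (120126772 to 120145291), encodes the zona protein to which sperm bind. MII oocytes had 427, 914, 76.9, 324 and 557 FPKM with VCD, against 548, 187, 523 and 395 FPKM with PBS. In 2-cell embryos there were 67.6, 77.3, 68.8 and 51.6 FPKM with VCD, and 61.6, 52.1, 58.4 and 70.4 FPKM with PBS. The lowest oocyte library, VCD replicate 3, lay just below the highest 2-cell library, VCD replicate 2, so the stages touched for Zp2 but not for Zp1 or Zp3. In morulae Zp2 was down to 0.765, 0.636, 1.58 and 0.863 FPKM with VCD, and to 0.769, 0.682, 1.26 and 0.523 FPKM with PBS. Between 26 and 66 reads stood behind each of these morula values.

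Zp3, on the plus strand of chromosome 5 (135980099 to 135988624), encodes the zona protein that pairs with ZP2 along the filaments. Its level in MII oocytes was 701, 1307, 305, 543 and 815 FPKM with VCD, and 894, 393, 781 and 642 FPKM with PBS. 2-cell embryos had 24.9, 31.1, 28.7 and 32.2 FPKM with VCD, against 33.3, 24.4, 26.1 and 33.1 FPKM with PBS. Set beside the oocyte means, the 2-cell means were 0.0398 times as high with VCD and 0.0431 times with PBS, against 0.0606 and 0.0660 times for Zp1. In morulae Zp3 stood at 29.3, 22.8, 23.5 and 29.9 FPKM with VCD, and at 27.5, 43.1, 28.03 and 25.7 FPKM with PBS. These ranges overlap those of the 2-cell embryos, and 475 to 982 reads stood behind each value. No other annotated gene overlaps the exons of Zp3, and none of its transcripts' 50-base words occurs in another annotated gene, which also holds for Zp1, Zp2, Astl and Izumo1r.

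Astl, on the plus strand of chromosome 2 (127338639 to 127357651), encodes ovastacin. Among the 8 genes it had the steepest step between oocyte and 2-cell embryo. Its MII level was 487, 615, 462, 531 and 651 FPKM with VCD, against 532, 632, 602 and 538 FPKM with PBS. The 2-cell level was 5.62, 5.26, 4.89 and 7.21 FPKM with VCD, and 4.60, 4.37, 4.45 and 5.61 FPKM with PBS. Set side by side, the 2-cell mean was 0.0105 of the MII mean with VCD and 0.00826 of it with PBS. Morulae had 0.385, 0.169, 0.255 and 0.646 FPKM with VCD, and 0.428, 0.997, 0 and 0.214 FPKM with PBS, from 44 reads at most. Alone among the 4 most abundant members in oocytes, Astl kept a narrow range there: the highest library was 1.41 times the lowest with VCD and 1.19 times with PBS, where Zp2 spanned 11.9 times with VCD and 2.93 times with PBS.

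Izumo1r, on the minus strand of chromosome 9 (14885814 to 14903949), encodes the membrane-anchored sperm receptor JUNO. Unlike the zona genes it was not lower in 2-cell embryos than in oocytes. MII libraries had 39.0, 66.9, 24.6, 43.1 and 63.2 FPKM with VCD, and 60.3, 33.9, 58.3 and 44.2 FPKM with PBS. 2-cell libraries had 75.8, 71.9, 53.1 and 67.1 FPKM with VCD, against 88.6, 71.5, 50.2 and 85.0 FPKM with PBS. The ranges of the 2 stages overlapped with either agent, and Izumo1r had the highest mean of the 8 genes in 2-cell embryos. In morulae it was listed at 0.150, 0, 0 and 0 FPKM with VCD, and at 0.144, 0.5003, 0.0685 and 0.0472 FPKM with PBS. That is 6 reads in all over the 4 VCD morula libraries and 32 reads over the 4 PBS morula libraries. The gene was below the minimum level for a test between the agents there.

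Cd9, on the minus strand of chromosome 6 (125460266 to 125494791), encodes the tetraspanin that mouse eggs need for fusion with sperm; the protein is also present on many other cells. It took the opposite course. The MII level was 32.2, 45.8, 11.6, 25.5 and 38.7 FPKM with VCD, against 18.8, 24.1, 40.8 and 27.5 FPKM with PBS. In 2-cell embryos it was 33.7, 33.3, 30.2 and 42.1 FPKM with VCD, and 34.0, 40.5, 34.6 and 41.0 FPKM with PBS. Morulae then had 1155, 932, 1035 and 671 FPKM with VCD, and 1150.2, 1001, 956 and 934 FPKM with PBS. The lowest morula library was therefore far above the highest 2-cell or oocyte library. Of the 50-base words of Cd9 transcripts, 14.4% also occur in other annotated genes, and the antisense gene Gm26728 covers 10.7% of the exon bases. In morulae the highest value of Gm26728 was 0.277 FPKM with VCD and 0.192 FPKM with PBS, and the pseudogene Cd9-ps was at 0 in all 8 libraries. The shared words occur in 173 genes, and the levels of those genes as a set were not examined.

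Cd81, on the plus strand of chromosome 7 (143052739 to 143067934), encodes a tetraspanin related to CD9. It was the least abundant member in MII oocytes, with 0.779, 0.642, 0.504, 0.930 and 0.721 FPKM with VCD, against 0.881, 0.770, 0.884 and 0.520 FPKM with PBS. In 2-cell embryos it was lower still, at 0.0230, 0.217, 0.184 and 0.0196 FPKM with VCD, and at 0.0664, 0.0931, 0.235 and 0.185 FPKM with PBS. The 2-cell values came from 1 to 13 reads per library. Morulae had 1.71, 1.65, 2.54 and 0.949 FPKM with VCD, and 0.728, 1.25, 2.98 and 1.64 FPKM with PBS. Every morula library was above every 2-cell library, but Cd9 was far more abundant. The median ratio of Cd9 to Cd81 within a morula library was 620 with VCD and 686 with PBS. It was 41.4 with VCD and 38.7 with PBS in MII oocytes, and 813 with VCD and 328 with PBS in 2-cell embryos, where few Cd81 reads stood behind it.

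Itpr1, on the plus strand of chromosome 6 (108213096 to 108551109), encodes the inositol trisphosphate receptor through which the fertilized egg releases stored calcium. MII libraries had 1.63, 1.84, 1.74, 1.86 and 1.89 FPKM with VCD, and 1.84, 1.77, 1.69 and 1.62 FPKM with PBS. 2-cell libraries had 1.80, 1.60, 2.03 and 2.47 FPKM with VCD, and 1.75, 1.70, 2.10 and 1.80 FPKM with PBS. These are low levels per kilobase of a long gene, and 497 to 803 reads stood behind each of them. In morulae Itpr1 was at 0.168, 0.0338, 0.185 and 0.135 FPKM with VCD, and at 0.148, 0.0412, 0.162 and 0.0777 FPKM with PBS. All 8 morula libraries were below all 8 2-cell libraries.

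Ordered by mean level, the genes ran Zp3, Astl, Zp1, Zp2, Izumo1r, Cd9, Itpr1 and Cd81 in MII oocytes with VCD. With PBS Zp1 and Zp2 changed places. With either agent the ranges of neighbours among the first 4 overlapped, as did those of Izumo1r and Cd9, and the other neighbours were apart. In 2-cell embryos with VCD the order was Izumo1r, Zp2, Cd9, Zp1, Zp3, Astl, Itpr1 and Cd81. With PBS Zp3 and Zp1 changed places. Izumo1r overlapped Zp2 and Zp1 overlapped Zp3 with both agents, Cd9 overlapped Zp1 with VCD, and all other neighbours in the order were apart. In morulae Cd9 was first and Zp3 second, each apart from the next gene. The remaining 6 followed from Cd81 down to Izumo1r with VCD and down to Itpr1 with PBS, and every neighbouring pair of those 6 overlapped.

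The design also allows a test between morulae and 2-cell embryos, which share a table. Zp1, Zp2, Astl, Izumo1r and Itpr1 fell and Cd9 and Cd81 rose in morulae, with either agent, and Zp3 did not pass. The test was limma with Benjamini-Hochberg adjustment over 14144 genes, on log2(FPKM + 1), called at an adjusted p below 0.05. With VCD, 84.8% of all genes tested were called, and with PBS 84.9%, so that 7 members called of 8 is near the background and the sizes and directions carry the description. The groups did not overlap for these same 7 members, which held for 76.5% of all genes with VCD and 80.9% with PBS.

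**Figure D2:**
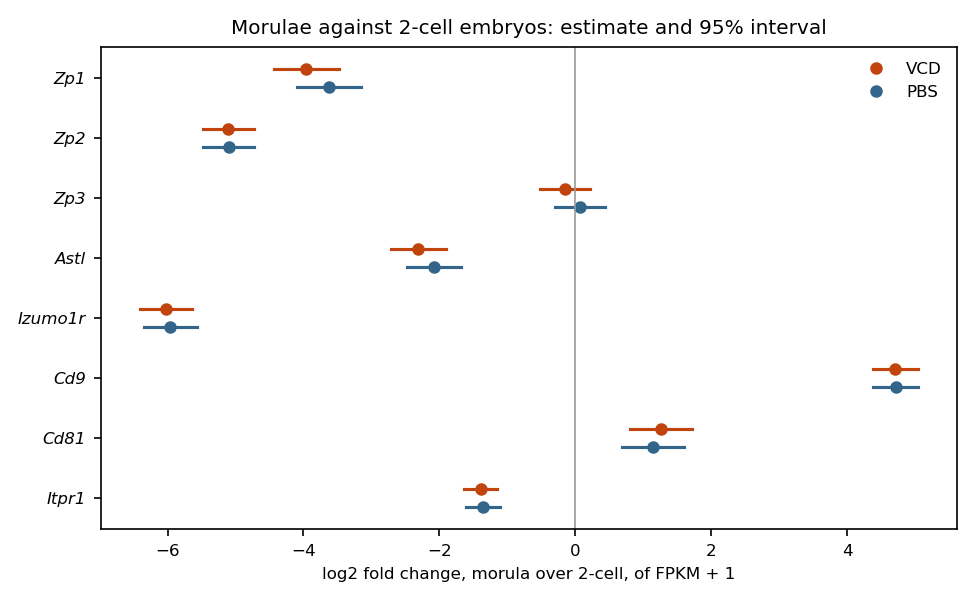
Log2 fold change of morulae over 2-cell embryos on the log2(FPKM + 1) scale for each of the 8 genes, with VCD in orange above PBS in blue; dots are estimates and lines 95% intervals, from 4 libraries per group. Cd9 and Cd81 lie right of 0, Zp3 spans 0, and the other 5 genes lie left of it.

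With PBS the log2 fold change of Izumo1r was -5.96 (standard error SE 0.18, adjusted p = 1.48e-14), that of Zp2 -5.10 (SE 0.18, adjusted p = 7.16e-14) and that of Zp1 -3.63 (SE 0.22, adjusted p = 1.10e-10). Astl was at -2.07 (SE 0.19, adjusted p = 1.95e-08), and Itpr1 was at -1.36 (SE 0.12, adjusted p = 8.24e-09). Cd9 was at 4.71 (SE 0.16, adjusted p = 4.10e-14) and Cd81 at 1.14 (SE 0.21, adjusted p = 0.000102). With VCD the same 7 genes had the same signs: Izumo1r -6.02, Zp2 -5.11, Zp1 -3.96, Astl -2.31, Itpr1 -1.39, Cd9 4.71 and Cd81 1.26, with limma adjusted p between 1.39e-14 and 3.80e-05. The added 1 FPKM understates the change of low genes: with 0.1 FPKM added instead, Astl was at -3.75 with VCD and -3.72 with PBS, Itpr1 at -3.21 with VCD and -3.27 with PBS, and Cd81 at 3.17 with VCD and 2.73 with PBS. As ratios of mean FPKM, Cd9 in morulae was 27.2 times its 2-cell level with VCD and 26.9 times with PBS. FPKM is a share of the library, so fewer transcripts of a gene per embryo and more RNA of other genes cannot be told apart.

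Zp3 was at -0.15 with VCD (95% interval -0.51 to 0.22, limma adjusted p = 0.436) and at 0.07 with PBS (95% interval -0.30 to 0.44, adjusted p = 0.717). With PBS its direction depended on the scaling, whereas with VCD it was negative under both scalings. With median-ratio size factors in place of the library total, Zp3 was at -0.50 with VCD (limma adjusted p = 0.0256) and passed, and at -0.32 with PBS (adjusted p = 0.145). That scaling also moved the median of all genes, which was -0.44 with VCD and -0.45 with PBS in place of -0.09 and -0.08. Relative to the median of all genes Zp3 was thus close to it under both scalings. With PBS the sign of Zp3 also turned without morula replicate 2, the highest library at 43.1 FPKM, where the value was -0.095, and without 2-cell replicate 2.

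A ratio of 2 genes within a library does not depend on the scaling. Zp3 over Zp2 was 38.3, 35.9, 14.8 and 34.7 in morulae with VCD, against 0.368, 0.402, 0.418 and 0.625 in 2-cell embryos with VCD. It was 35.7, 63.2, 22.2 and 49.1 in morulae with PBS, against 0.540, 0.468, 0.447 and 0.470 in 2-cell embryos with PBS. Zp2 RNA therefore outnumbered Zp3 RNA per kilobase in all 8 2-cell libraries, and Zp3 outnumbered Zp2 in all 8 morula libraries. The mean log2 ratio was higher in morulae by 6.03 with VCD and 6.37 with PBS. For Zp3 over Zp1 it was higher by 4.84 with VCD and 4.56 with PBS, although Zp3 and Zp1 were at like levels in 2-cell embryos. These ratios restate the levels above and are given as a description. An exact permutation test of the log2 ratios, added after the values were seen, gave p = 0.0286 in all 4 comparisons. That is the smallest p that 4 against 4 libraries allow, so nothing further is read from it. In MII oocytes Zp3 over Zp2 had a median of 1.64 with VCD and 1.63 with PBS, and the single high value was 3.97 in VCD replicate 3.

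**Figure D3:**
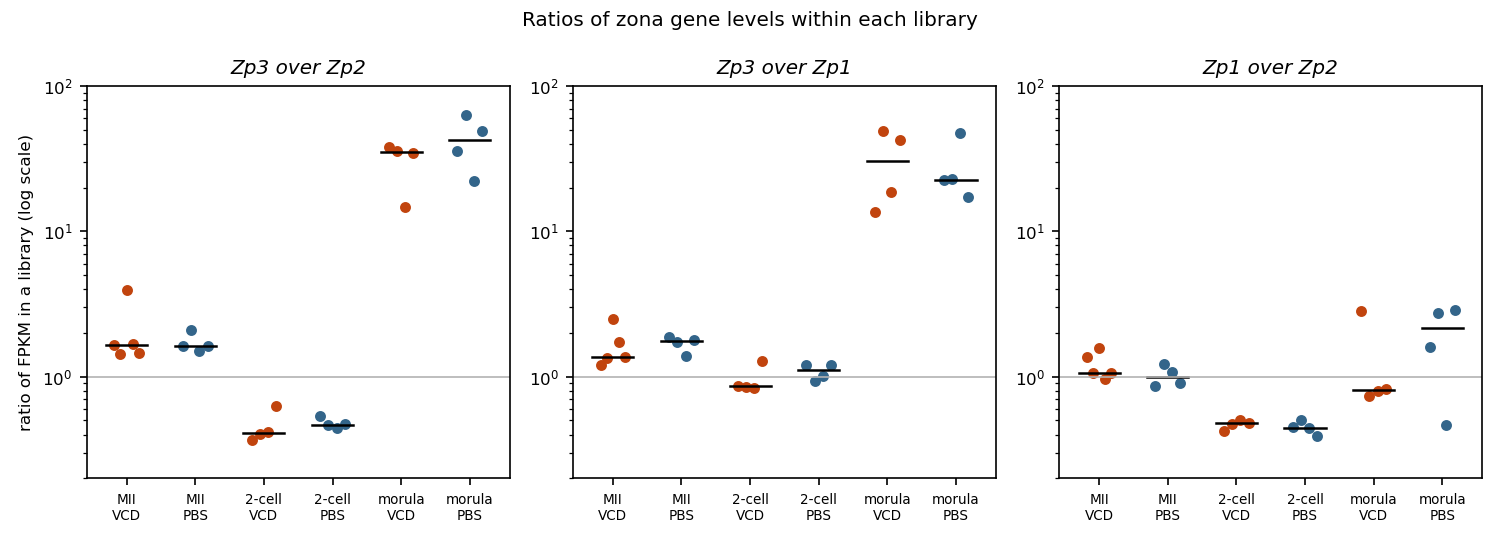
Ratios of FPKM of 2 zona genes within each library, on a log axis, with VCD in orange and PBS in blue; points are libraries and horizontal lines group medians. Zp3 over Zp2 lies below 1 in every 2-cell library and between 14.8 and 63.2 in morula libraries. Zp1 over Zp2 stays between 0.390 and 2.86 in all groups.

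Promoter sequence is shown for the 3 genes that stand for the 3 courses after the 2-cell stage: Zp3 (still present in morulae), Izumo1r (nearly gone) and Cd9 (raised). Sequences are from RefSeq (GRCm38.p6), each 5′ to 3′ on the strand of its gene, the 250 bases before the start: chr5:135979855-135980104 on the plus strand for Zp3, chr9:14903768-14904017 on the minus strand for Izumo1r and chr6:125494761-125495010 on the minus strand for Cd9. Capitals mark E-boxes, the motif CANNTG, which reads the same on both strands. The starts are those of RefSeq. The GENCODE span of Izumo1r, on the minus strand, begins at base 14903949, so most of its stretch, with the E-box, lies inside that span. The stretches of Zp3 and Cd9 enter their GENCODE spans only at the end nearest the start. For Cd9 that end holds the E-box CAGCTG. Zona genes are known to be switched on in the growing mouse oocyte by FIGLA, a factor that binds E-boxes.
Zp3: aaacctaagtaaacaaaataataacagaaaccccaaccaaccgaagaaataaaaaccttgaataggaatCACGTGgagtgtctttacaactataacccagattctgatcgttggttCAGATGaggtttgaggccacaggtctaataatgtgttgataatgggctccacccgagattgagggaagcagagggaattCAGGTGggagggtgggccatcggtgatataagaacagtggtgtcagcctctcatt
Izumo1r: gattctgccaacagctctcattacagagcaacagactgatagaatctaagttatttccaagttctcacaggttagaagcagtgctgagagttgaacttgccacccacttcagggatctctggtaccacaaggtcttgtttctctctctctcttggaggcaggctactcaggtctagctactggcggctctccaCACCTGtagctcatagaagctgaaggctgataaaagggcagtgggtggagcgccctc
Cd9: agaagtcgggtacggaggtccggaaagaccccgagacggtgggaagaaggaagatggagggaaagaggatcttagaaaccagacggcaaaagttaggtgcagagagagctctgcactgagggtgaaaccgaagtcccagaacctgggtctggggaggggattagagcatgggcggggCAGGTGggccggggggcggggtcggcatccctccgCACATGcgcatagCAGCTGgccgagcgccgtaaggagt
In the window of 300 bases that adds the first 50 of the transcript, Zp3 had 4 E-boxes, Izumo1r had 1 and Cd9 had 3. Of 32851 promoters of this length, 72.3% had at least 1, so an E-box does not set these genes apart. The TATA box TATAAA, looked for on both strands, was in none of these 3 and in 13.6% of all promoters. Of the other members Cd81 had 1 E-box and a TATA box, and Astl, listed with 2 starts, had 3 E-boxes at one start and 0 at the other. Zp1, Zp2 and Itpr1 were not matched.

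Other genes of the same processes were also described between morulae and 2-cell embryos with PBS, beside the median of all genes of -0.08 and the shares of all genes that rose (40.9%) and fell (44%). The counts of the lists are small and nothing particular to a list is read from them. Of 15 listed genes of the egg surface and of adhesion, 11 were tested, 3 rose and 7 fell, with a median of -1.74. The integrin subunits Itga3 (log2 fold change 2.74) and Itgb1 (1.62) rose in morulae, whereas Oosp1, an oocyte-secreted protein (-7.37), and the integrin subunit Itga9 (-7.16) fell. Of 23 genes of calcium release and egg activation 17 were tested, 6 rose and 10 fell, with a median of -0.62. Calm3, a calmodulin gene, rose by 2.18 and Erp44, an endoplasmic reticulum chaperone that binds the inositol trisphosphate receptor, rose by 1.86. Wee2, the kinase that holds CDK1 inactive as the egg leaves meiosis, was at -8.25 and Fbxo43, which encodes the inhibitor EMI2 that keeps the egg in metaphase, at -6.75. Of 16 genes of cortical granule release and zona hardening 14 were tested, 2 rose and 7 fell, with a median of -0.58. Tpst2, a protein tyrosine sulfotransferase, was at 1.44 and Napa, a factor of membrane fusion, at 1.12, while the zinc transporters Slc39a6 and Slc39a10 were at -4.12 and -3.84. The limma adjusted p of these 12 named genes was at most 4.23e-05.

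Markers of follicle cells were also summed. The 12 listed cumulus and granulosa genes came to 18.7 to 36.6 FPKM in morulae with VCD and 19.1 to 32.0 FPKM in morulae with PBS, against 5.67 to 7.12 FPKM in 2-cell embryos with VCD and 5.55 to 10.54 FPKM in 2-cell embryos with PBS. The sum was thus higher in morulae, as Cd9 was. With PBS 4 of the 12 were tested: Amhr2 (log2 fold change 2.32) and Hsd17b1 (3.76), which made up most of the sum in morulae, rose, and 2 fell. Of the 12, Fshr, Has2, Inha and Ptx3 were at 0 in all 8 morula libraries. The part of such cells in the level of Cd9 was not tested. In MII oocytes the sum was 7.83 to 10.8 FPKM with VCD and 9.35 to 11.8 FPKM with PBS, mostly Cyp19a1.

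In MII oocytes the zona genes varied far more between libraries than other genes of like abundance. The SD of the log2 level, pooled over the 2 agents, was 0.94 for Zp1, 1.11 for Zp2 and 0.67 for Zp3. Among 500 genes of nearest mean level, 99.8%, 100% and 99.2% varied less than these 3, and of 129 genes at 300 FPKM or more Zp2, Zp1 and Zp3 ranked 1, 2 and 4 by this SD. Izumo1r (0.50) and Cd9 (0.63) also varied more than 99.2% and 99.4% of their neighbours, but Astl (0.18) only more than 72.2%. Itpr1 (0.053) varied less than all 500 of its neighbours. Neighbours were matched on FPKM and not on reads, and Itpr1, with 18319 exon bases, had 524 to 674 reads in each oocyte library. The part of the number of reads in its small SD was not tested. In 2-cell embryos the spread of the members was ordinary: between 9.2% and 82.2% of neighbours varied less. VCD replicate 3 was the lowest of the 9 oocyte libraries in Zp1, Zp2, Zp3, Astl, Izumo1r, Cd9 and Cd81, and also had the fewest genes at 1 FPKM or more, 8257 against at most 8941. VCD replicate 2 was the highest in Zp1, Zp2, Zp3, Izumo1r and Cd9, and PBS replicate 2 the second lowest in Zp1, Zp2, Zp3 and Izumo1r. Whether a property of those libraries sets these levels was not tested. Without VCD replicate 3 the SD was 0.62 for Zp1, 0.68 for Zp2, 0.52 for Zp3 and 0.41 for Cd9. Without any single library in turn, at least 99.6%, 100% and 98.8% of neighbours varied less than Zp1, Zp2 and Zp3, and without VCD replicates 2 and 3 together 98.8%, 99.6% and 98.0% did.

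**Figure D4:**
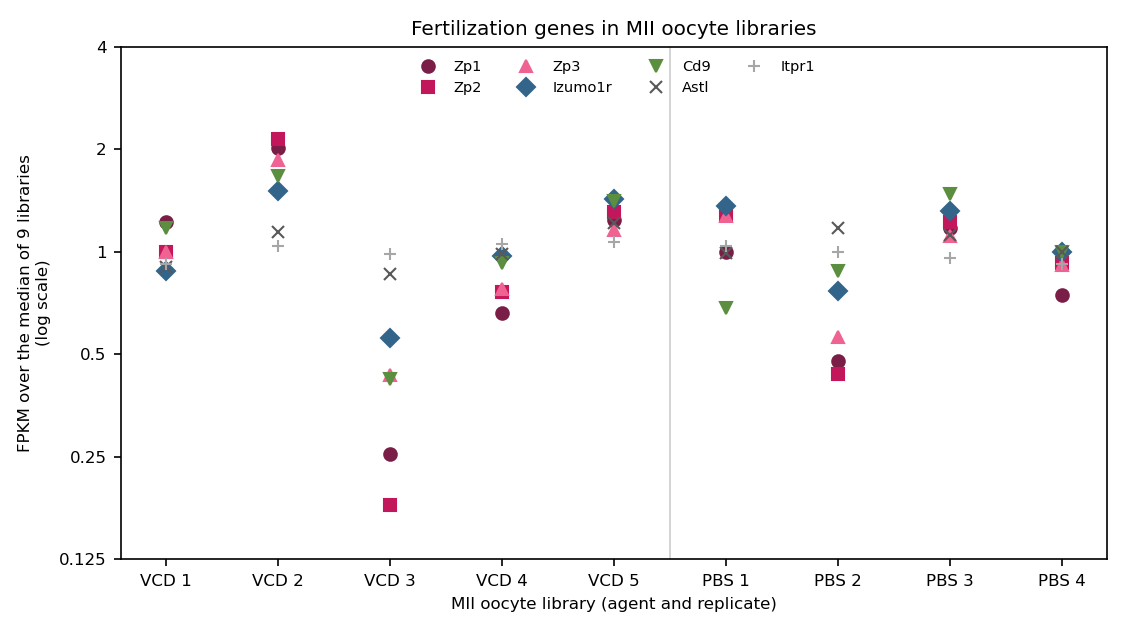
FPKM of 7 members in each MII oocyte library over that gene's median of the 9 libraries, on a log axis, with the 5 VCD libraries left of the 4 PBS libraries; each symbol is a gene. Zp2 lies between 0.180 and 2.14 times its median, while Astl and Itpr1 stay near 1 in every library.

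The 3 zona genes moved together over these 9 libraries, but so did some genes outside the zona with them. On log2(FPKM + 1), Pearson's r was 0.97 between Zp1 and Zp2, 0.96 between Zp1 and Zp3 and 0.97 between Zp2 and Zp3, with exact permutation p of 7.99e-05, 0.000110 and 5.51e-06 and adjusted p of 0.000160, 0.000165 and 3.31e-05 (two-sided, over 3 pairs and 2 coefficients). Spearman's rho was 0.93, 0.88 and 0.98, with exact p of 0.000750, 0.00308 and 4.96e-05 and adjusted p of 0.000899, 0.00308 and 0.000149. Without the 2 libraries farthest from the median, VCD replicate 3 and PBS replicate 2, r was 0.91, 0.90 and 0.99 (exact p = 0.00575, 0.0103 and 0.000397, n = 7). Spearman's coefficient was then 0.86, 0.75 and 0.96, with exact p of 0.0238, 0.0663 and 0.00278, so that the rank relation of Zp1 and Zp3 no longer passed without those libraries. Each agent alone has fewer than 6 libraries, too few for a coefficient within it. The libraries share their scaling to a library total. Some other genes followed the zona genes as closely. Among genes of nearest profile, Pearson's r was 0.98 between Tcn2 and Zp1, 0.97 between Ergic3 and Zp2 and 0.98 between Lrpap1 and Zp3. Moving together is thus not particular to the zona genes, and the share of all genes with such coefficients was not examined.

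The genes whose profile was nearest to that of a member, by the root mean square difference of centred log2(FPKM + 1), are given as a description. Over the 9 MII libraries these were Tcn2 (0.18), Zp2 (0.26) and Ergic3 (0.27) for Zp1, and Ergic3 (0.23), Zp1 (0.26) and Pinlyp (0.27) for Zp2. For Zp3 they were Yipf1 (0.16), Eif3g (0.19) and Lrpap1 (0.20), so no other zona gene was among its nearest 3. Izumo1r was nearest to Tmem106c (0.12), Arpc1a (0.12) and Pga5 (0.13), and Astl to Tram2 (0.041), Larp4b (0.053) and Srgn (0.060). Cd9 was nearest to Naip1 (0.19), Gbp7 (0.21) and Cdpf1 (0.22), and Itpr1 to Sertad3 (0.029), Rfc1 (0.034) and Ldah (0.041).

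Over the 16 embryo libraries Zp1 was nearest to Spire1 (0.25), Epha3 (0.27) and Marf1 (0.27), and Zp2 to 4933417E11Rik (0.18), Tmem182 (0.21) and AA792892 (0.21). Zp3 was nearest to Xpa (0.18), Pkd1l3 (0.20) and Cers5 (0.21). For Izumo1r these were Cldn25-ps (0.17), Gm5065 (0.20) and Rspo2 (0.20), and for Astl Arhgef11 (0.21), Smurf2 (0.22) and Foxn2 (0.22). Cd9 was nearest to Mrps31 (0.12), Rps3a1 (0.17) and Psmb7 (0.18), and Cd81 to P3h4 (0.17), Gm45220 (0.20) and Cgref1 (0.21). Itpr1 was nearest to Tnik (0.077) and Pafah1b1 (0.087). No zona gene was thus among the 3 nearest genes of another in embryos.

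The study's own question was what VCD does at each stage, and for these genes no difference passed. In MII oocytes 7 members were tested, Cd81 being below the minimum of 1 FPKM in 4 libraries, and 0 passed limma's test, where 0.0115% of 8715 genes did. In 2-cell embryos 7 were tested, again without Cd81, and 0 passed, as did 0% of 11369 genes. In morulae Zp1, Zp3, Cd9 and Cd81 were tested and 0 passed, where 0.01% of 9959 genes did. In these fits no member had an unadjusted p below 0.05 at any stage, which 2.81%, 3.44% and 3.12% of all genes had. In 2-cell embryos 1 member had one with array weights, where 1174 of 11369 genes did. Without 2-cell VCD replicate 4 it was again 1 member, beside 680 of 11055 genes. Limma-voom on reads recovered from the values also called 0 members at each stage. VCD and PBS groups overlapped for all of them, whereas 1.04%, 2.16% and 2.04% of all genes did not overlap in MII oocytes, 2-cell embryos and morulae.

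**Figure D5:**
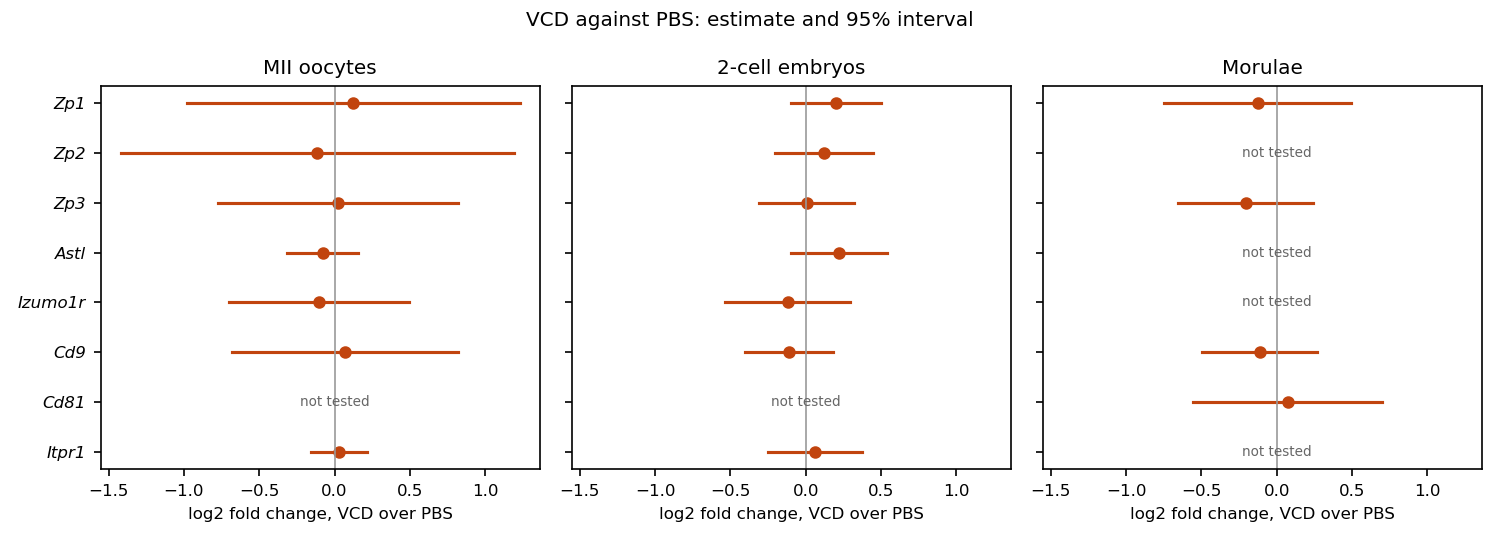
Log2 fold change of VCD over PBS for the genes tested at each of 3 stages on the log2(FPKM + 1) scale; dots are estimates, lines 95% intervals, from 5 VCD and 4 PBS libraries in MII oocytes and 4 of each in embryos. All intervals span 0, and those of Zp1 and Zp2 in oocytes are the widest.

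How large a difference these libraries leave room for depends on the gene and the stage. In MII oocytes Zp2 averaged 459.8 ± 309 FPKM with VCD and 413 ± 165 FPKM with PBS (SD, n = 5 and 4). Its log2 difference was -0.11 with a 95% interval of -1.42 to 1.19 (limma adjusted p = 0.999), opposite in sign to the difference of the FPKM means; without VCD replicate 3, at 76.9 FPKM, it was 0.43. Changes of over 2-fold either way lie within that interval. Zp1 was at 0.12 (-0.98 to 1.23) and Zp3, with 734 ± 373 FPKM with VCD and 677 ± 216 FPKM with PBS, at 0.02 (-0.77 to 0.82). For Cd9 the difference was 0.07 (-0.68 to 0.82) and for Izumo1r -0.10 (-0.70 to 0.49). The interval was far narrower for Astl, at -0.08 (-0.31 to 0.16), with 549 ± 81.6 FPKM with VCD and 576 ± 49.4 FPKM with PBS. For Itpr1 it was 0.03 (-0.15 to 0.22), with 1.79 ± 0.106 FPKM with VCD and 1.73 ± 0.0930 FPKM with PBS. At so low a level the added 1 FPKM narrows the interval, so it is not a like measure to that of Astl.

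In 2-cell embryos the log2 differences of the 7 tested genes ran between -0.12 for Izumo1r and 0.22 for Astl. Astl averaged 5.75 ± 1.02 FPKM with VCD and 4.76 ± 0.572 FPKM with PBS (SD, n = 4 each), with a 95% interval of -0.10 to 0.54, and Zp1 31.2 ± 5.33 FPKM with VCD and 26.8 ± 0.876 FPKM with PBS, with an interval of -0.10 to 0.50. Izumo1r averaged 66.9 ± 9.92 FPKM with VCD and 73.8 ± 17.4 FPKM with PBS, with an interval of -0.53 to 0.30. On the log2(FPKM + 1) scale no interval of the 7 genes reached a 2-fold change in either direction. In morulae Cd9 averaged 948 ± 206 FPKM with VCD and 1010.2 ± 97.5 FPKM with PBS, a difference of -0.11 (-0.50 to 0.27). Zp3 averaged 26.4 ± 3.75 FPKM with VCD and 31.1 ± 8.08 FPKM with PBS, a difference of -0.21 (-0.65 to 0.24). The limma adjusted p was 0.999 or above in all of these.

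The VCD effect in morulae was also set against that in 2-cell embryos, in 1 fit over the 16 embryo libraries. Of the 8 members 0 passed, as did 0% of 14144 genes; 0 members and 502 genes (3.55%) had an unadjusted p below 0.05. Limma-voom also called 0 members, with 1 at an unadjusted p below 0.05. The differences of effects lay between -0.33 for Zp1 and 0.12 for Cd81. Of the 15 egg surface and adhesion genes 9 were tested for VCD against PBS in MII oocytes, 8 in 2-cell embryos and 7 in morulae. For the 23 calcium and activation genes these counts were 14, 16 and 10. They were 11, 14 and 11 for the 16 cortical granule genes. None of the genes tested passed at any stage. Of the cortical granule genes 1 had an unadjusted p below 0.05 in 2-cell embryos, and otherwise no gene of those 3 lists had one in VCD against PBS. For the difference of effects 1 adhesion gene had one, Cd151, a tetraspanin gene named after its values were seen (0.49, unadjusted p = 0.0412, limma adjusted p = 0.999).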

How the data were processed

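The 25 Smart-seq2 libraries were analysed from the authors' deposited FPKM, given in 1 table for oocytes (25158 genes) and 1 for embryos (34228 genes). The submitters' processing notes list TopHat2 2.0.12 and Bowtie2 2.2.3; the build named there is a chicken build, whereas all identifiers are mouse Ensembl identifiers. No counting tool, annotation or strand setting is given in the sources used here. FPKM leaves a gene's level open to changes in highly abundant genes, which share the library total.

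Groups were taken from the labels' stage and agent. The members and the gene lists were chosen with earlier results of these data known. The named listed genes are the 2 called genes of largest change in each direction whose higher group averaged at least 5 FPKM. The 3 genes of nearest profile were named for each member, except that 1 gene is not reported here. limma 3.58.1 in R 4.3.3, with a variance trend, was fitted to log2(FPKM + 1) of all genes that reached 1 FPKM in 4 or more of the fitted libraries: each stage alone for VCD against PBS, and the 16 embryo libraries for morula against 2-cell and for the difference of VCD effects, so that these share libraries and 1 estimate of spread. Reads were recovered from FPKM times exon length (GENCODE M21), where between 91.9% and 94.4% of values under 200 reads were whole within 0.05; they gave depth, reads behind a value and limma-voom. Reads here are not independent molecules, as Smart-seq2 carries no molecular identifiers. All orders of the 9 libraries were enumerated for correlations, in place of random draws. The fits were tested on simulated data first. For VCD against PBS they recovered 74%, 50% and 52% of 2-fold changes in MII oocytes, 2-cell embryos and morulae. Of 4-fold changes they recovered 100%, 99% and 100%, with 15, 15 and 10 false calls. Between morulae and 2-cell embryos with PBS 49% of 2-fold and 98% of 4-fold changes were recovered, with 14 false calls. Same-numbered VCD and PBS libraries correlated between -0.33 and 0.38, over 0.1 in 3 of 12 pairs, so the numbers were not taken to pair them. Alternatives were a pseudocount of 0.1, no filter, a minimum of 10 FPKM, median-ratio size factors, no trend, array weights, limma-voom, a replicate block and leaving out each library.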

Additional observations from a re-analysis of the deposited data

Results flagged for a closer look

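Of 48 sets of values (8 genes in 6 groups), 2 held a library that stood apart from the rest of its group by Dixon's criterion, which chance meets in about 1 of 20 groups. Zp3 in morulae with PBS was 43.1 FPKM in replicate 2, with the next library at 28.03 FPKM and the lowest at 25.7 FPKM. Izumo1r in morulae with VCD was 0.150 FPKM in replicate 1, from 6 reads, with the other 3 libraries at 0. With those 3 at 0 any value above 0 meets the criterion, so the rate of 1 in 20 does not apply to this set.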

How the results depend on the processing

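The 7 members called between morulae and 2-cell embryos kept direction and call in all 330 refits in which they could be tested. With a minimum of 10 FPKM only 5 members were tested and 4 passed, with VCD and with PBS, since fewer genes were kept. Zp3 between morulae and 2-cell embryos with PBS was -0.32 with median-ratio size factors and -0.095 to 0.15 without a library in turn; with VCD it was -0.50 (adjusted p = 0.0256) with size factors and -0.22 to -0.08 without a library. Of 290 refits of members for VCD against PBS none passed (lowest limma adjusted p = 0.456) and 29 changed sign. In oocytes the replicate block left out VCD replicate 5, which has no PBS library of the same number. The median of all genes in that fit, -0.0054, was also that of the fit without this library, so they are not separate checks. With the replicate block the MII values were -0.046 for Cd9, -0.00096 for Zp1 and -0.053 for Zp3, and the block changed no call of a member. With array weights they were 0.063 for Zp2 in oocytes and -0.031 for Itpr1 in 2-cell embryos, and with size factors -0.015 for Zp3 in 2-cell embryos. Without a library in turn, the MII values were -0.18 to 0.57 for Zp1, -0.46 to 0.43 for Zp2, -0.22 to 0.30 for Zp3, -0.27 to 0.10 for Izumo1r and -0.10 to 0.37 for Cd9. They were -0.014 to 0.12 for Itpr1 and -0.073 to 0.079 for Zp3 in 2-cell embryos, and -0.11 to 0.29 for Cd81, -0.22 to 0.042 for Cd9 and -0.33 to 0.036 for Zp1 in morulae. The cause of these turns of sign was not tested. Pearson's r between zona genes passed with another pseudocount, with size factors and without each library in turn, with values of 0.95 to 0.98 for Zp1 and Zp2, 0.94 to 0.98 for Zp1 and Zp3 and 0.97 to 0.99 for Zp2 and Zp3 without a library in turn; the rank relation of Zp1 and Zp3 did not pass without VCD replicate 3 and PBS replicate 2 (exact p = 0.0663). Depth limits Cd81 in 2-cell embryos and Izumo1r in morulae, where single reads decide a value.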
